A study of Homo sapiens with 4 samples.

Results

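Lysosomal genes were followed in IMR90 cells, human fetal lung fibroblasts, after HMGB1 was knocked down. The list held 45 genes, given by symbol and drawn up with earlier results of these data known. It comprised 10 proteases, 10 glycosidases, 4 sulfatases, 6 lipid hydrolases or lipid-handling proteins, 6 subunits of the proton pump and 6 membrane proteins. The 3 transcription factors MITF, TFE3 and TFEB completed it. All 45 were found on primary chromosomes among the 63677 genes of the count files, and all 45 passed the filter on low counts that left 15398 genes for testing. RNA-seq of poly(A) RNA was available from 2 control and 2 knockdown libraries. Control cells received a non-targeting siRNA and knockdown cells siRNAs against HMGB1, both transfected with RNAiMAX and harvested at 72 h. Replicate 1 of both groups was the IMR90 isolate I90-10 and replicate 2 was I90-79, so that each isolate gave 1 library per group and no transfection was repeated within an isolate.

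Lysosomes are acidic organelles in which hydrolases break down proteins, glycans, glycolipids and other cargo. The vacuolar ATPase (V-ATPase) pumps protons into the lumen, most soluble hydrolases are tagged with mannose 6-phosphate in the Golgi for delivery, and TFEB, TFE3 and MITF bind E-box sequences near the promoters of many lysosomal genes. Senescent fibroblasts are known for an enlarged lysosomal compartment, and the β-galactosidase activity used to stain them at near-neutral pH comes from the lysosomal enzyme encoded by GLB1.

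The libraries held 29869338 and 35317010 counted reads in the control cells and 29861687 and 31086475 in the knockdown cells. HMGB1 itself stood at 181 and 237 CPM (read counts scaled to library size with TMM factors) in control cells. Upon knockdown it was at 16.0 and 18.9 CPM, with log2-fold changes of −3.50 in I90-10 and −3.65 in I90-79. Fitted by group, edgeR's quasi-likelihood test gave a log2-fold change of −3.59 (SE 0.19, Benjamini-Hochberg adjusted p = 0.00751). All 9 fibroblast markers examined were expressed, with summed levels of 45263 and 23178 CPM in control and 38275 and 24060 CPM in knockdown cells, lower in both libraries of I90-79. The sum is mostly collagens and FN1. When the isolate entered the edgeR fit as a block, THY1 (log2-fold change −0.99), FN1 (−0.74) and PDGFRB (−0.68) fell and LUM (0.83) rose. For THY1, FN1 and PDGFRB the groups overlapped, with edgeR adjusted p-values by group of 0.297, 0.283 and 0.277. LUM had 0.0987 in that fit. With 1 factor of unwanted variation (RUVs) before DESeq2, THY1, FN1 and PDGFRB were at −0.37, −0.26 and −0.23 (adjusted p = 0.0991, 0.180 and 0.331). There LUM (1.05), COL3A1 (0.68) and DCN (0.66) were higher, each with an adjusted p below 0.01. Summed over 5 markers of leukocytes and macrophages, another cell type rich in lysosomes, the libraries held 0.272 to 0.353 CPM, and AIF1 and CD3E were at 0 in all of them. Endothelial markers summed to between 135 and 150 CPM, nearly all of it TEK, with CDH5 at 0, and epithelial markers to 58.6 and 67.1 CPM in control against 78.5 and 98.5 CPM in knockdown cells, with KRT5 at 0. That sum was nearly all KRT18, at 39.5 and 52.8 against 65.9 and 88.8 CPM, and KRT8, which was lower upon knockdown at 18.4 and 13.8 against 11.98 and 9.16 CPM. The part of these markers in the lysosomal results was not tested. Because RNA was measured in bulk, fewer cells expressing a gene and less RNA of it per cell cannot be told apart. With 2 libraries per group the p-values measure the spread between these libraries alone, and an exact two-sided permutation test cannot fall below 0.333.

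The lysosomal genes were expressed over a wide range. Per kilobase of exon, PSAP, the precursor of the saposins that help degrade sphingolipids, had the highest level in control cells (455 ± 28.9 CPM per kb, SD, n = 2), followed by the tetraspanin CD63 (304 ± 23.4) and the cysteine protease CTSB (226 ± 6.19). The lowest were CLN3, a membrane protein mutated in Batten disease, at 0.625 ± 0.0412 and TFEB at 0.576 ± 0.217 CPM per kb. Upon knockdown, CTSB stood at 442 ± 44.4 CPM per kb, beside CD63 at 439 ± 46.1 and below PSAP at 539 ± 57.2. CTSL, another cysteine protease, went from 80.0 ± 11.1 to 240 ± 23.8 CPM per kb, and the abundant lysosomal membrane glycoprotein LAMP1 from 79.8 ± 5.95 to 86.4 ± 4.32.

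**Figure D1:**
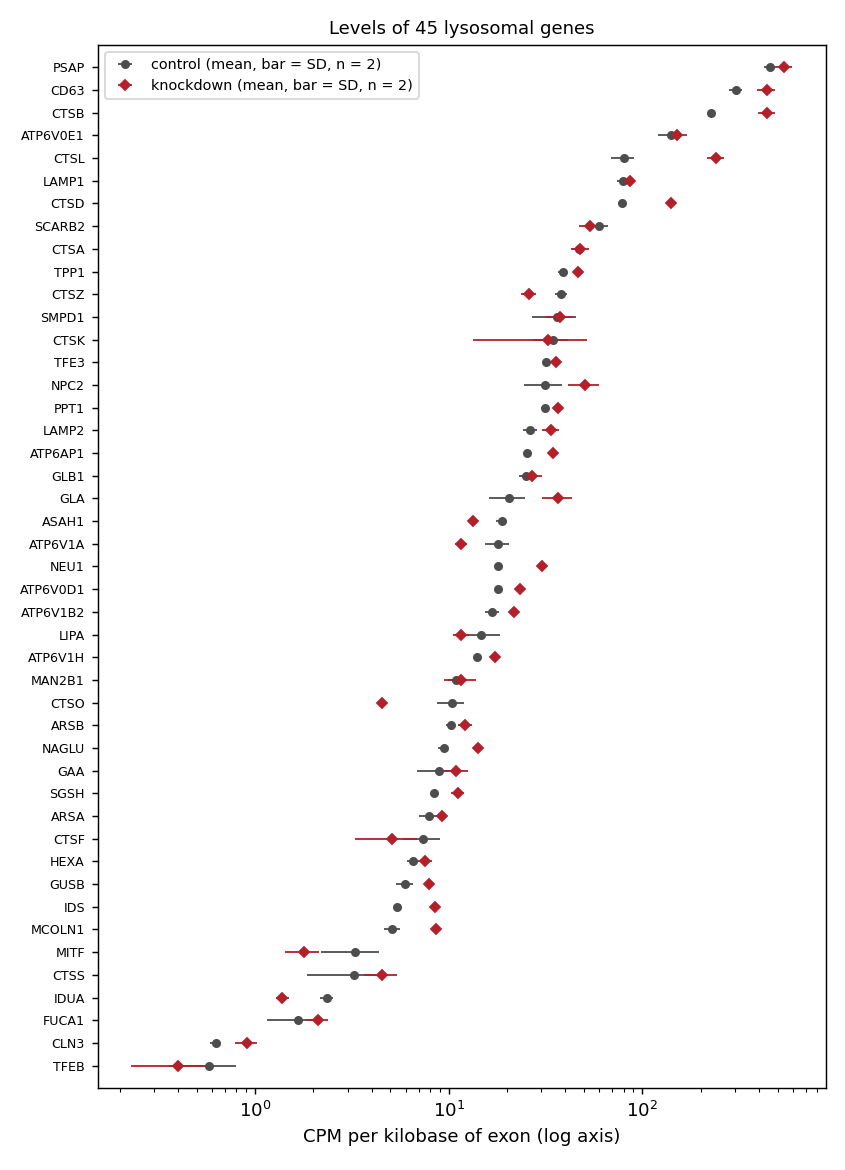
Mean level of each of the 45 lysosomal genes in CPM per kilobase of exon (log axis) in control cells (grey circles) and HMGB1 knockdown cells (red diamonds), ordered by the control level, with bars for the SD of 2 libraries. PSAP was highest in both groups (455 and 539 CPM per kb), and CTSL and CTSB lay further to the right in knockdown than in control cells.

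Because TFEB, TFE3 and MITF recognise E-boxes, the promoters of the lysosomal genes were searched for the letters CACGTG, for the longer TCACGTGA and for GTCACGTGAC, each of which contains the one before and reads the same on both strands. RefSeq promoters (GRCh38.p14), running from 250 bases before to 50 after the start site, were at hand for 30 of the 45 genes. CACGTG was present in 10 of these 30 (33.3%), in 9.83% of 11104 promoters of tested genes and in 7.43% of all 27305 promoters. TCACGTGA was found in 6 of the 30 (against 1.87% of the promoters of tested genes), and GTCACGTGAC in 2 of the 30 (6.67%, against 0.738%). Such a match describes letters and is no evidence of binding in these cells. The following stretches, with the matched letters in capitals, are shown for MCOLN1, CTSD and NEU1, whose RNA levels are described further on, and for GAA and LAMP1, where matches were longest or most frequent.
MCOLN1 (chr19:7522571-7522600, + strand): accagaggcggTCACGTGAggggctctggg
MCOLN1 (chr19:7522598-7522627, + strand): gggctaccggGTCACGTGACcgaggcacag
CTSD (chr11:1763957-1763986, − strand): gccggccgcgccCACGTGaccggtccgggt
NEU1 (chr6:31862930-31862959, − strand): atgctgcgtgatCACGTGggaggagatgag
GAA (chr17:80101493-80101522, + strand): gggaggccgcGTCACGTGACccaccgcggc
GAA (chr17:80101538-80101567, + strand): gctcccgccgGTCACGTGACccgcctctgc
LAMP1 (chr13:113297199-113297228, + strand): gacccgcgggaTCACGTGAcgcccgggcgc
LAMP1 (chr13:113297226-113297255, + strand): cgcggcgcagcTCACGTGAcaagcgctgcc

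The 6 genes with TCACGTGA had log2-fold changes between 0.025 and 0.74 upon knockdown, with a median of 0.33. The 4 with CACGTG alone had a median of 0.64 and ranged from −0.54 to 0.85, and the 20 promoters without it a median of 0.20, with a range from −0.88 to 1.58. The highest value of the list, that of CTSL, therefore belonged to a gene with no CACGTG in the stretch searched. These medians are descriptions, and the difference between the groups of promoters was not tested.

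Across the 45 genes, knockdown libraries leaned towards higher levels. The smallest adjusted p-values of the edgeR fit by group belonged to some proteases and glycosidases, the sulfatase IDS and the membrane protein MCOLN1. The summed level of the list was 8415 and 7797 CPM in control and 11928 and 10754 CPM in knockdown cells, or 0.828% and 0.814% against 1.15% and 1.08% of the counted reads. CTSB alone made up 20.4% and 21.1% of this sum in control and 29.5% and 28.4% in knockdown libraries, and without it the sums were 6702 and 6150 against 8408 and 7701 CPM. The median log2-fold change was 0.25, beside −0.0054 over all genes tested, and 34 genes lay above 0 and 11 below. In both isolates the change was positive for 31 genes (38.9% of all genes tested) and negative for 10 (39.4%), and it differed in sign between the isolates for 4. Both knockdown libraries lay above both control libraries for 25 genes (29.8% of all genes tested) and below them for 6 (30.2%).

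Differential expression was called at an adjusted p below 0.01 with an absolute log2-fold change above 0.6. Fitted by group alone, 0 of the 45 genes rose and 0 fell, while 0.0649% of all genes tested rose and 0.136% fell. At an unadjusted p below 0.05 there were 17 higher genes (13.6% of all genes tested) and 6 lower genes (14.7%) in the same edgeR fit, so that the lower genes were about as frequent in the list as among all genes. At an adjusted p below 0.05 with any fold change 7 rose (3.94% of all genes tested) and 1 fell (4.5%). DESeq2 called 7 up (4.71% of all genes tested) and 1 down (5.31%). As both isolates occur in both groups, the libraries can also be compared within isolates. With the isolate as a replicate block in edgeR, 8 genes rose (6.68% of all genes tested), namely CTSL, CTSB, CTSD, GLA, NEU1, MCOLN1, NPC2 and IDS, and 3 fell (7.84%), namely CTSO, MITF and ATP6V1A. Where a gene is said below to have risen or fallen, it passed these thresholds in the blocked fit and missed them in the fit by group. With 1 factor of unwanted variation (RUVs) before DESeq2, the order of steps in the study's methods, 10 genes were called up (4.94% of all genes tested) and 1 down (5.36%). NAGLU and CD63 joined the 8 above, and neither MITF nor ATP6V1A was called.

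**Figure D2:**
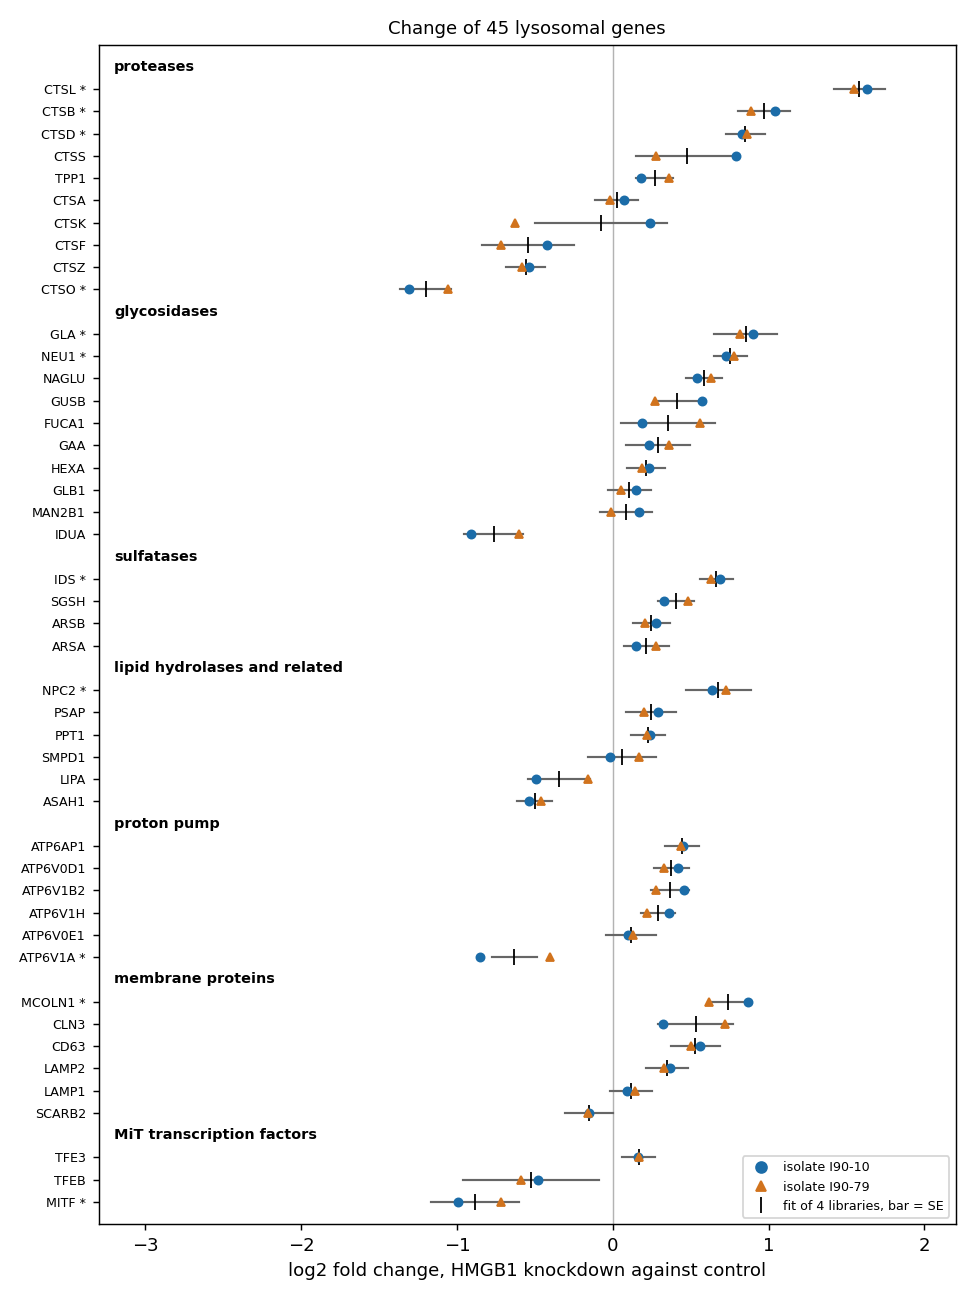
Log2-fold change (knockdown against control) of the 45 lysosomal genes by role. Blue circles give isolate I90-10, orange triangles I90-79, black ticks with grey bars the fit of 4 libraries with its SE, and asterisks the 11 genes called with the isolate as a block. The proteases spread from −1.20 (CTSO) to 1.58 (CTSL), while 9 of 10 glycosidases and 4 of 4 sulfatases lay above 0.

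Proteases went in opposite directions. Of the 10, CTSL, CTSB and CTSD rose and CTSO fell, and the median log2-fold change was 0.15. CTSL (hg19 chr9:90340434-90346308), a cysteine endopeptidase, was measured at 171 and 208 CPM in control and at 527 and 607 CPM in knockdown cells. The groups lay far apart. The log2-fold change was 1.58 (SE 0.16) with an adjusted p of 0.0131 in the edgeR fit by group, and 1.59 with an adjusted p of 4.87e-05 in the blocked fit. CTSB (chr8:11700033-11726957), a cysteine protease with both endo- and exopeptidase activity, had 1713 and 1648 CPM in control and 3520 and 3053 CPM in knockdown cells. This was again a gap without overlap, in the most abundant protease of the list (log2-fold change 0.97, SE 0.17, edgeR adjusted p = 0.0349, and 3.38e-04 with the block). CTSD (chr11:1773982-1785222), the main lysosomal aspartic protease, went from 228 and 241 to 406 and 439 CPM (log2-fold change 0.85, SE 0.13, edgeR adjusted p = 0.0251, and 4.43e-04 with the block). Of its exonic bases 41.3% overlap exons of other genes in the annotation, and the use of strand in counting was not stated, so part of its count cannot be assigned with certainty.

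CTSO (chr4:156845270-156875069), a less studied cysteine protease, had the lowest log2-fold change of the 45 genes. It had 34.0 and 27.1 CPM in control and 13.6 and 13.0 CPM in knockdown cells, so that the knockdown libraries lay below both control libraries. Its log2-fold change was −1.20 (SE 0.16), with an edgeR adjusted p of 0.0216 by group and 3.46e-04 with the block. CTSZ, a carboxypeptidase, also had both knockdown libraries below both control libraries (81.7 and 74.0 against 56.2 and 49.5 CPM), with a log2-fold change of −0.56, above the −0.6 needed for a call. The remaining proteases gave no call in any of these fits. CTSA, which protects β-galactosidase and neuraminidase in a complex, and the bone collagenase CTSK had opposite signs in the isolates, and the tripeptidyl peptidase TPP1 was at 197 and 183 against 223 and 235 CPM.

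Glycosidases lay mostly above 0, with GLA and NEU1 as the 2 of 10 that rose with the block, and a median log2-fold change of 0.32. GLA (chrX:100652791-100662913), the α-galactosidase deficient in Fabry disease, was at 35.8 and 48.4 CPM in control and 66.8 and 85.4 CPM in knockdown cells. The isolates differed in level but each went up by a similar factor, with log2-fold changes of 0.90 and 0.82. The fit by group gave 0.85 (SE 0.20, edgeR adjusted p = 0.0647) and the block 0.86 (adjusted p = 5.23e-04). NEU1 (chr6:31825436-31830683), the lysosomal sialidase, had closely matched libraries at 87.1 and 86.5 CPM in control and 144 and 149 CPM in knockdown cells (log2-fold change 0.76, SE 0.10, edgeR adjusted p = 0.0221, and 7.26e-04 with the block). NAGLU (chr17:40688190-40696467), which removes N-acetylglucosamine from heparan sulfate, was at 29.5 and 27.1 against 42.9 and 41.9 CPM. Its groups did not overlap, but its log2-fold change of 0.59 (SE 0.12) stayed under the threshold with an edgeR adjusted p of 0.0460, and 12.6% of its exonic bases overlap another gene.

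GLB1 (chr3:33038100-33138722), the gene of senescence-associated β-galactosidase, was measured at 115 and 103 CPM in control and 128 and 107 CPM in knockdown cells. The knockdown library of I90-79 lay between the control libraries, so the groups overlapped. Its log2-fold change was 0.11 (SE 0.14), with a 95% confidence interval from −0.24 to 0.45 and an edgeR adjusted p of 0.649, and with the block it was 0.10 (adjusted p = 0.435). The sign rested on 1 library, and without knockdown replicate 1 the value was −0.025. Of the GLB1 exonic bases, 10.0% overlap other genes, among them TMPPE. Among the other glycosidases, IDUA, which acts on dermatan and heparan sulfate, was at 9.97 and 8.93 against 5.26 and 5.86 CPM (log2-fold change −0.76, edgeR adjusted p = 0.0713, and 0.0119 with the block), the only one of the 10 below 0.

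**Figure D3:**
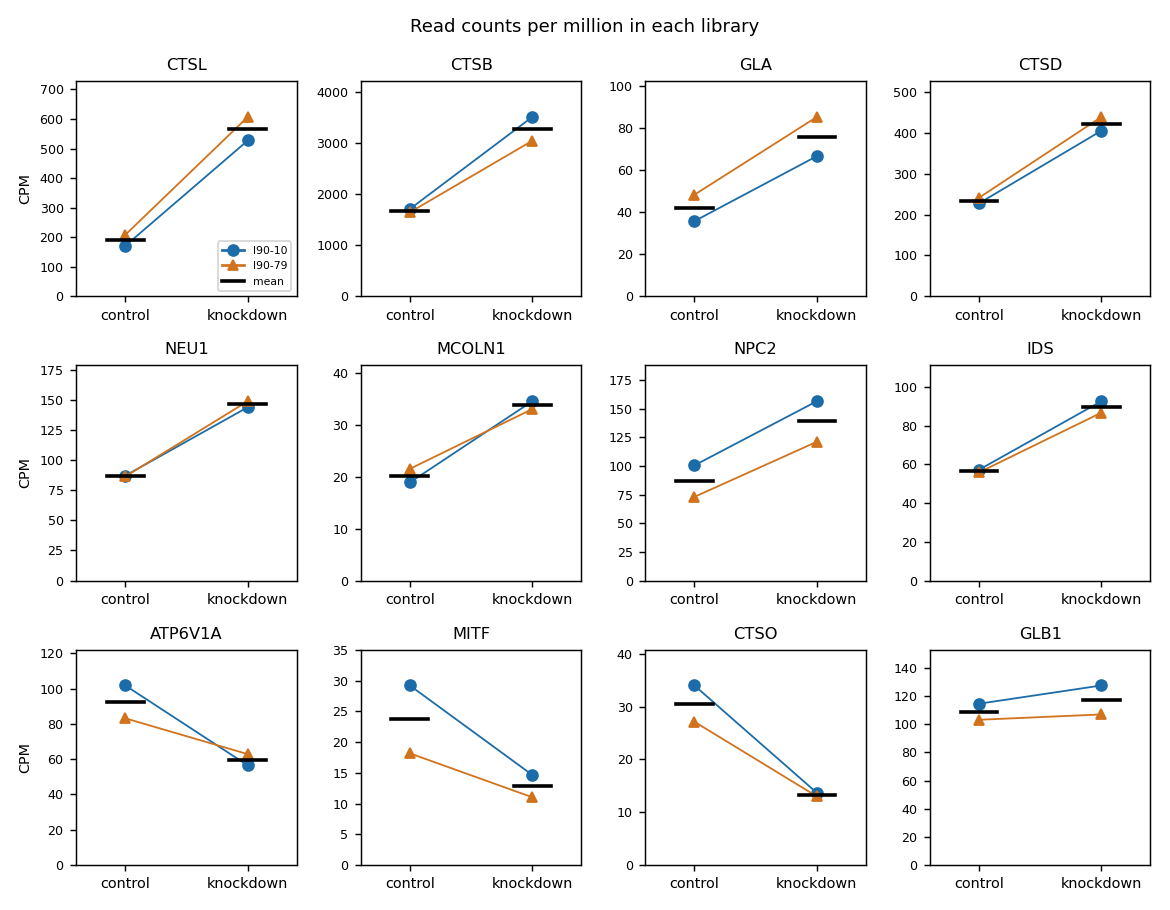
CPM in each library (linear axes from 0) for the 11 lysosomal genes called with the isolate as a block and for GLB1. Blue circles joined by a line are isolate I90-10, orange triangles I90-79, and black bars the means of 2 libraries. For each of the 11 genes both isolates moved in the same direction, and the GLB1 groups overlapped at 115 and 103 against 128 and 107 CPM.

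Sulfatases, which remove sulfate from glycosaminoglycans and sulfolipids, all lay above 0 with a median log2-fold change of 0.33, and 1 of 4 rose. IDS (chrX:148558521-148615470), the iduronate sulfatase deficient in Hunter syndrome, was at 57.2 and 55.8 CPM in control and 92.6 and 86.7 CPM in knockdown cells. The groups were well separated, with a log2-fold change of 0.67 (SE 0.11, edgeR adjusted p = 0.0299, and 0.00154 with the block). IDS shares much sequence, since 76.3% of 50-base stretches along its transcripts are found in RNAs of other genes too, which leaves its count of unique reads uncertain. SGSH (chr17:78180515-78194722), which desulfates heparan sulfate, was at 56.2 and 56.7 against 70.8 and 78.9 CPM (log2-fold change 0.41, SE 0.11, edgeR adjusted p = 0.0913). ARSA and ARSB had both knockdown libraries above both control libraries as well, with log2-fold changes of 0.22 and 0.25 and no call.

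Of the 6 lipid hydrolases and lipid-handling proteins, NPC2 rose, and the median log2-fold change was 0.14. NPC2 (chr14:74942895-74960880), which binds cholesterol in the lumen and passes it on for export, was at 101 and 73.1 CPM in control and 157 and 121 CPM in knockdown cells. The isolate I90-79 was lower in both groups, and the groups did not overlap. The log2-fold change was 0.68 by group (SE 0.21, edgeR adjusted p = 0.110) and 0.68 with the block (adjusted p = 0.00122). ASAH1 (chr8:17913934-17942494), acid ceramidase, was at 99.4 and 90.9 against 68.5 and 66.0 CPM. Both knockdown libraries were lower, but its log2-fold change of −0.50 (SE 0.11, edgeR adjusted p = 0.0561, and 0.00556 with the block) was short of the threshold. PSAP and the thioesterase PPT1 had log2-fold changes of 0.25 and 0.23, and acid lipase LIPA and acid sphingomyelinase SMPD1 had overlapping groups.

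The 6 proton pump subunits of the list differed in sign, with 5 above 0, a median log2-fold change of 0.33 and 1 call, of ATP6V1A, which fell. ATP6V1A (chr3:113465866-113530903), the catalytic subunit that hydrolyses ATP, was at 102 and 83.1 CPM in control and 56.4 and 62.8 CPM in knockdown cells. All knockdown values lay below all control values, more so in I90-10 (log2-fold change −0.85) than in I90-79 (−0.40). The fit by group gave −0.63 (SE 0.14, edgeR adjusted p = 0.0599) and the blocked fit −0.63 (adjusted p = 0.00664). ATP6AP1 (chrX:153656978-153664862), an accessory subunit, was at 126 and 122 against 172 and 165 CPM, a separation in the other direction (log2-fold change 0.45, SE 0.11, edgeR adjusted p = 0.0681). ATP6V1B2, the partner of the catalytic subunit in the V1 head, stood at 123 and 139 against 170 and 169 CPM (log2-fold change 0.37, edgeR adjusted p = 0.121). ATP6V0D1 and ATP6V1H also had groups that did not overlap, with log2-fold changes of 0.38 and 0.29, and those of ATP6V0E1 overlapped.

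A further 18 V-ATPase genes outside the list were examined, of which 17 were tested. With the block, 5 of them rose (6.68% of all genes tested). In edgeR by group 0 were called. In that fit 8 higher (13.6% of all genes tested) and 1 lower (14.7%) had an unadjusted p below 0.05. RUVs with DESeq2 called 3 up (4.94% of all genes tested). ATP6V0A1, a subunit of the membrane-embedded V0 sector, was at 49.5 and 47.1 CPM in control and 80.8 and 80.4 CPM in knockdown cells (log2-fold change 0.74, SE 0.11, edgeR adjusted p = 0.0240, and 0.00100 with the block). ATP6V1G1, part of the peripheral stalk, was at 109 and 112 against 173 and 197 CPM (log2-fold change 0.74, SE 0.12, edgeR adjusted p = 0.0301, and 9.28e-04 with the block). ATP6V0B, in the proton-carrying ring, was at 95.1 and 130 against 200 and 229 CPM (log2-fold change 0.93, SE 0.19, edgeR adjusted p = 0.0452, and 4.23e-04 with the block). Over both sets of V-ATPase genes, 18 of the 23 tested lay above 0 and 5 below, with a median log2-fold change of 0.37, and ATP6V1A was the only one that fell.

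**Figure D4:**
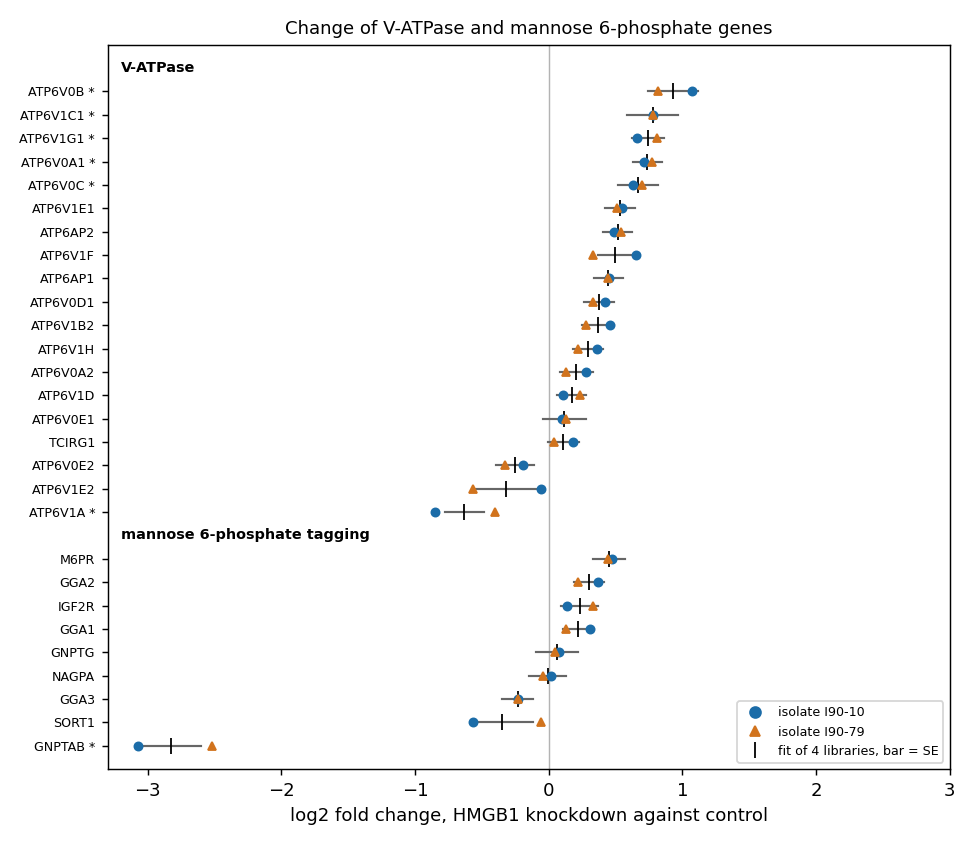
Log2-fold change (knockdown against control) of the 19 V-ATPase genes and the 9 genes of mannose 6-phosphate tagging and sorting with a mean of at least 100 counts. Symbols are isolates (circles I90-10, triangles I90-79), ticks with bars the fit of 4 libraries with its SE, and asterisks mark calls with the isolate as a block. GNPTAB stood at −2.83, the lowest fitted value shown, and the highest fitted value of the tagging genes was 0.45.

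Membrane proteins had the highest median log2-fold change of the 7 roles, 0.44 over 6 genes, and 1 of them rose. Over the 19 other lysosomal membrane proteins tested, described further on, the median was 0.17. MCOLN1 (chr19:7587512-7598895), a calcium channel of the lysosomal membrane whose promoter stretches are printed above, was at 18.9 and 21.5 CPM in control and 34.6 and 33.0 CPM in knockdown cells. Both isolates showed the difference, with a log2-fold change of 0.74 (SE 0.13, edgeR adjusted p = 0.0371, and 0.00221 with the block). CD63 (chr12:56119107-56123491) was at 843 and 756 against 1239 and 1068 CPM. Its groups were apart, but the log2-fold change of 0.53 (SE 0.16, edgeR adjusted p = 0.102, and 0.00426 with the block) was below the threshold, which it passed after RUVs, at 0.63. LAMP2, needed for fusion with autophagosomes, was at 157 and 140 against 202 and 175 CPM (log2-fold change 0.35, edgeR adjusted p = 0.168). LAMP1 and SCARB2, the receptor that carries β-glucocerebrosidase, had overlapping groups and log2-fold changes of 0.12 and −0.15.

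Of the 3 transcription factors MITF fell with the block, and neither TFE3 nor TFEB was called. MITF (chr3:69788586-70017488) was at 29.2 and 18.2 CPM in control and 14.6 and 11.0 CPM in knockdown cells. Both knockdown values were lower than both control values, although the control libraries differed widely from each other. The log2-fold change was −0.88 by group (SE 0.28, edgeR adjusted p = 0.117) and −0.86 with the block (adjusted p = 0.00193), and −0.56 after RUVs, where it was not called. Without control replicate 1 it was −0.50. TFEB (chr6:41651716-41703997) was at 4.12 and 2.39 against 2.94 and 1.57 CPM, and its groups overlapped (log2-fold change −0.53, SE 0.44, edgeR adjusted p = 0.478). The TFEB value rested on single libraries, at −0.085 without control replicate 1, −0.14 without knockdown replicate 2, −0.87 without control replicate 2 and −1.05 without knockdown replicate 1, and it was −0.10 after RUVs. TFE3 (chrX:48886242-48901012) was the most abundant of the 3, at 137 and 136 against 153 and 153 CPM. Its groups were narrowly apart, with a log2-fold change of 0.17 (SE 0.11, edgeR adjusted p = 0.352). RNA levels give no account of the nuclear transport by which these factors are known to be controlled.

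Delivery of the hydrolases was examined through 9 genes of mannose 6-phosphate tagging and sorting. GNPTAB (chr12:102139275-102224716) was the only one called with the block, in which 7.84% of all genes tested fell. RUVs with DESeq2 also called 1 down (5.36% of all genes tested). By group in edgeR 0 were called, while 2 higher and 1 lower had an unadjusted p below 0.05, counts near the 13.6% and 14.7% of all genes tested. GNPTAB encodes the α and β subunits of the phosphotransferase that starts the tag, and it was at 106 and 70.2 CPM in control and 12.6 and 12.2 CPM in knockdown cells. This was a 7.11-fold lower mean, with no overlap and a log2-fold change of −2.83 (SE 0.23, edgeR adjusted p = 0.0104, and 3.13e-05 with the block). The median log2-fold change of the 9 genes was 0.06.

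Among 25 other hydrolases and activators, 24 were tested, with a median log2-fold change of 0.12. With the block 3 fell (7.84% of all genes tested). GM2A, the activator that presents the ganglioside GM2 for degradation, was at 47.2 and 31.9 CPM in control and 12.5 and 10.1 CPM in knockdown cells (log2-fold change −1.80, SE 0.24, edgeR adjusted p = 0.0202, and 6.44e-05 with the block). HGSNAT, the acetyltransferase of heparan sulfate breakdown, was at 142 and 120 against 61.8 and 48.9 CPM (log2-fold change −1.24, SE 0.17, edgeR adjusted p = 0.0204, and 1.01e-04 with the block).

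Of 20 other lysosomal membrane proteins, 19 were tested, and 4 rose with the block (6.68% of all genes tested). In edgeR by group 0 were called, and RUVs with DESeq2 called 2 up (4.94% of all genes tested). OSTM1, a partner of the chloride-proton exchanger ClC-7, was at 28.1 and 36.1 CPM in control and 152 and 179 CPM in knockdown cells. Its 5.15-fold higher mean was the largest increase among the genes named here (log2-fold change 2.36, SE 0.18, edgeR adjusted p = 0.0104, and 1.60e-05 with the block). TMEM192 was at 14.6 and 18.5 against 28.5 and 28.1 CPM. Its log2-fold change was 0.77 (SE 0.16, edgeR adjusted p = 0.0503, and 0.00303 with the block). MFSD8, the gene of a form of neuronal ceroid lipofuscinosis, was at 12.2 and 13.3 against 19.3 and 27.4 CPM. Its log2-fold change was 0.88 (SE 0.21, edgeR adjusted p = 0.0659, and 0.00269 with the block). RUVs with DESeq2 called neither TMEM192 nor MFSD8. Signalling of mTORC1 at the lysosome holds TFEB in the cytoplasm when nutrients are plentiful. A list of its genes and the transcription factor TFEC held 19 genes, of which 18 were tested and TFEC was not. With the block 1 rose and 1 fell, near the 6.68% and 7.84% of all genes tested. LAMTOR3, part of the Ragulator scaffold, was at 22.4 and 22.99 against 34.3 and 43.4 CPM (log2-fold change 0.78, SE 0.16, edgeR adjusted p = 0.0464, and 0.00203 with the block). TSC1, an inhibitor of the pathway, was at 114 and 99.9 against 60.9 and 65.5 CPM (log2-fold change −0.76, SE 0.12, edgeR adjusted p = 0.0296, and 0.00146 with the block).

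In these libraries genes whose 3′ UTR contained the letters GCAGTT tended to be lower upon knockdown, a word chosen after this relation had been seen. Over 12376 tested genes with a 3′ UTR of at least 100 bases, the median log2-fold change was 0.07 without the word, −0.10 with 1 copy, −0.22 with 2 copies and −0.32 with 3 or more, and 36.2% of the genes held it. Of the 44 lysosomal genes with such a 3′ UTR, 19 held the word. It occurred in 3 of the 7 that rose and have such a 3′ UTR, and in 1 of the 3 that fell, namely ATP6V1A with 1 copy, while CTSO and MITF had none. Among all 1119 genes with such a 3′ UTR that fell with the block, 795 held the word. Outside the list, TSC1 held 5 copies, GNPTAB 2, and GM2A, HGSNAT and SIAE 1 each, all of which fell. Of the outer genes that rose, TMEM192 and the V-ATPase gene ATP6V1C1 held 2 copies each and MFSD8 1. OSTM1, LAMTOR3, ATP6V0A1, ATP6V1G1 and ATP6V0B, which also rose, held none. The part of this word in the differences was not tested, and the length of the 3′ UTR was not taken into account.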

How the data were processed

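Control and HMGB1 knockdown IMR90 were sequenced as poly(A)-selected TruSeq libraries, 2 per group. The authors mapped reads to hg19 with STAR and deposited raw counts of unique reads per gene from featureCounts, 1 file per library; their notes also name DESeq2. Tool versions, the strand setting and the counting of read pairs are not given in the sources used here. No reads fell on rows without a gene identifier, and 55665 of the 63677 genes had a symbol.

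Counts were tested with edgeR 4.0.16 (R 4.3.3, limma 3.58.1): filterByExpr, TMM, the quasi-likelihood test by group and Benjamini-Hochberg adjustment over 15398 genes. Isolate log2-fold changes used a prior count of 2. Same-numbered libraries came from the same isolate, and their deviations were correlated (0.46), so an isolate block was fitted beside the main design. DESeq2 (1.42.0), RUVs with 1 factor (written out from its description, with DESeq2), DESeq2 size factors in edgeR, other count filters, another threshold and leaving out each library were the alternatives. The code was checked on simulated data.

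The 45 genes, the lists around them (91 genes, 87 tested) and the tests were chosen with earlier results of these data known. Named with full values were GLB1, the 3 transcription factors, genes called in either edgeR fit and the 2 of smallest p per role, and at most 3 called genes per outer list. Of 24 marker genes 23 were matched. Overlaps, shared 50-base pieces and 3′ UTRs came from GENCODE lifted to hg19 and promoters from RefSeq. Exonic length is that in the count files. CTSZ, IDUA, TPP1, LAMP2, ATP6V1B2 and other genes given outside this rule were chosen after their values were seen. A result for 1 of the outer genes is not reported here.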

Additional observations from a re-analysis of the deposited data

Results flagged for a closer look

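The change had opposite signs in the isolates for 4 lysosomal genes. CTSK, an osteoclast collagenase also made by fibroblasts, was at 74.4 and 55.5 CPM in control and 87.5 and 35.8 CPM in knockdown cells, a log2-fold change of 0.24 in I90-10 and −0.63 in I90-79, with a difference of 0.87 between the isolates. For CTSA the log2-fold changes were 0.07 and −0.02 (difference 0.09), for MAN2B1 0.17 and −0.01 (difference 0.18), and for SMPD1 −0.02 and 0.17 (difference −0.18). With 1 library per isolate and group these differences were not tested.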

How the results depend on the processing

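By group in edgeR, 0 lysosomal genes were called up and 0 down. There were 8 up and 3 down both with the replicate block, which pairs libraries of an isolate, and without a filter on low counts, 7 and 1 with DESeq2, 10 and 1 with RUVs and DESeq2, and 7 and 1 at an adjusted p below 0.05. Leaving out 1 library gave 0 to 1 up and 0 to 1 down. For the 91 outer genes the counts up and down were 11 and 5 with the replicate block and without a filter, 9 and 5 with DESeq2, 7 and 5 with RUVs, 7 and 5 at an adjusted p below 0.05, and 0 to 1 and 0 to 3 leaving out 1 library. Over all genes, 10 rose and 21 fell by group, against 1028 and 1207 with the block, 1118 and 1275 without a filter, 725 and 817 with DESeq2, 760 and 826 with RUVs and 606 and 693 at an adjusted p below 0.05. With at least 10 counts in every library 6 rose, and without control replicate 2 there were 182 and 221, with a range of 0 to 182 and 0 to 221 over the omissions. The median log2-fold change of the 45 genes was 0.31 with RUVs and ranged from 0.17 without knockdown replicate 1 to 0.33 without knockdown replicate 2. For single genes, the tally covered the lysosomal genes named by rule, some of them because they passed with the replicate block. Passing in that setting was fixed by this choice for those genes. Among all 114 values under the other settings, 41 newly passed the thresholds and 73 kept their direction and call. Of 76 values with 1 library left out, 73 kept both, 2 newly passed and 1 reversed, that of GLB1 at −0.025 without knockdown replicate 1, in a range up to 0.23. The cause of these shifts was not tested. Depth limits TFEB most, with 49 to 121 counts per library.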
